A study of Mus musculus with 4 samples.

Results

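Expression of 9 genes of the interleukin-1 (IL-1) system was compared in sorted mouse hair follicle stem cells from skin with and without regulatory T cells. They are the agonists Il1a and Il1b, the receptor antagonist Il1rn, the signalling receptor Il1r1 and its partner Il1rap, the decoy receptor Il1r2, the related cytokines Il18 and Il33, and the adaptor Myd88. They were chosen by name as family members, receptors and adaptor, and matched by symbol, and all 9 were found among 24084 gene rows. A filter on low counts kept 7 of the 9 for testing, together with 12920 genes in all. Il1a and Il1b were left out by it.

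RNA was sequenced from 4 libraries of C57BL/6 skin epidermis, 2 labelled WT (A and C) and 2 labelled Foxp3-DTR (C and D), and paired values below follow that order. The mice were 7 to 10 weeks old, and cells were taken 4 days after the back hair was pulled out, which sets off regrowth. Diphtheria toxin went into the peritoneum of both groups at 15 ng/g. Foxp3 drives the toxin's receptor in Foxp3-DTR mice, so that the labels give regulatory T cells as depleted there and present in WT. Labels do not state whether a library came from 1 animal or from pooled animals, and the spread between libraries may therefore be technical.

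IL-1 signalling starts when an agonist binds Il1r1 and the pair recruits Il1rap, which brings Myd88 and the kinases of the Irak family to the membrane and activates NF-kappaB. Il1rn occupies the receptor without signalling, and Il1r2 captures agonist but lacks the signalling domain. The receptors for IL-18, IL-33 and IL-36, like most Toll-like receptors, use the same adaptor. In skin, keratinocytes are known both to store IL-1 family cytokines and to respond to them.

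Gene counts per library were between 13911765 and 15923154. The 12 genes listed as hair follicle stem cell markers were all detected. Their summed level was 33852 to 34755 CPM in WT and 28177 to 32410 CPM in Foxp3-DTR (CPM is counts per 1000000 gene counts after TMM scaling). Krt5 was the most abundant of them, and the sum was not tested as a measure of stem cell identity. Suprabasal epidermis markers separated the libraries within each group: their sum was 9911 CPM in WT A and 8484 CPM in Foxp3-DTR D, against 1069 CPM in WT C and 1391 CPM in Foxp3-DTR C. Sex-linked genes separated the groups too. A set of 4 Y-linked genes had no counts in WT and summed to 260 to 319 CPM in Foxp3-DTR, and Xist was at 861 to 2482 CPM in WT and at most 1.86 CPM in Foxp3-DTR. Foxp3 itself had 0 counts in every library, so depletion could not be checked in these sorted cells. Group, sex and the DEP2 or DEP3 code in the titles cannot be told apart in any comparison here.

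Myd88 was the only member to pass the test over all genes, and it was higher in Foxp3-DTR. Its level was 30.6 CPM in WT A, 25.6 in WT C, 78.8 for Foxp3-DTR C, and 81.6 for Foxp3-DTR D. The groups lay far apart and each pair of replicates lay close together. Myd88 (chromosome 9, 119335934 to 119341411 in GRCm38, the assembly named mm10) rose from a mean of 28.1 ± 3.51 CPM to 80.2 ± 2.01 CPM (SD, n = 2), a 2.86-fold rise and a log2 fold change of 1.51 ± 0.20 (SE; edgeR adjusted p = 0.0323). In the same test 0.820% of all genes were called higher and 0.426% lower, and 1 of the 7 tested members was called higher and 0 lower. At an unadjusted p under 0.05 in edgeR 2 members were higher and 0 lower, against 6.76% and 7.89% of all genes, and DESeq2 and limma-voom also called 0 lower. Without Foxp3-DTR C the log2 fold change of Myd88 was 1.54 and its edgeR adjusted p was 0.0818.

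Annotated exons of Myd88 share 290 bases with those of Acaa1a on the opposite strand, and the strand setting of the counting is not given in the sources used here. Acaa1a itself had 794, 869, 805 and 812 counts in WT A, WT C, Foxp3-DTR C and Foxp3-DTR D. Its log2 fold change was 0.02 ± 0.18 (SE; edgeR adjusted p = 0.978).

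The Myd88 promoter is shown because this is the member that rose. It is the stretch of 250 bases before the RefSeq start site (GRCm38.p6, chr9:119340019-119340268, minus strand, 5′ to 3′), with motif matches in capitals.
Myd88 promoter: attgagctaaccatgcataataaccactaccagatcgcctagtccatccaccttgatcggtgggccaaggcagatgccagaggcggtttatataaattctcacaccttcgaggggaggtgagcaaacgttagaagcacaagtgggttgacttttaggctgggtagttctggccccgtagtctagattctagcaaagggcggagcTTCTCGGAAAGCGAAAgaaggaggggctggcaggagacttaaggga
The capitals hold a gamma-activated sequence, searched as TTCNNNGAA, that starts 46 bases before the start site, and an interferon-stimulated response element, searched as GAAANNGAAA, that starts 40 bases before it. The last letters of the first match, GAA, are also the first letters of the second. The RefSeq start lies inside the longer GENCODE span of the gene. Of 32851 mouse promoter windows of 300 bases, searched on both strands, 8.30% held the first motif and 3.44% the second. The NF-kappaB consensus and the AP-1 motif TGANTCA were not found in the Myd88 window. Of the 10 genes searched, Il1rap also held the second motif and Il1r2 the first, and neither gene was called higher. Il18r1, which was called higher, held the first motif too. These matches describe letters, not binding.

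The genes whose profile over the 4 libraries was nearest to that of Myd88 were Lgals9, B4galt1 and Mapkapk3. Likeness was the Euclidean distance between centred log2 CPM profiles over 4 libraries, among 11194 tested genes whose average log2 CPM was 2 or more. The distances were 0.16, 0.20 and 0.21. Lgals9, which encodes the lectin galectin-9, stood at 29.99 and 27.1 CPM in the WT libraries, against 89.2 and 90.8 CPM with Foxp3-DTR. B4galt1 is a galactosyltransferase and Mapkapk3 a kinase downstream of p38. Their function or control was not compared.

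**Figure D1:**
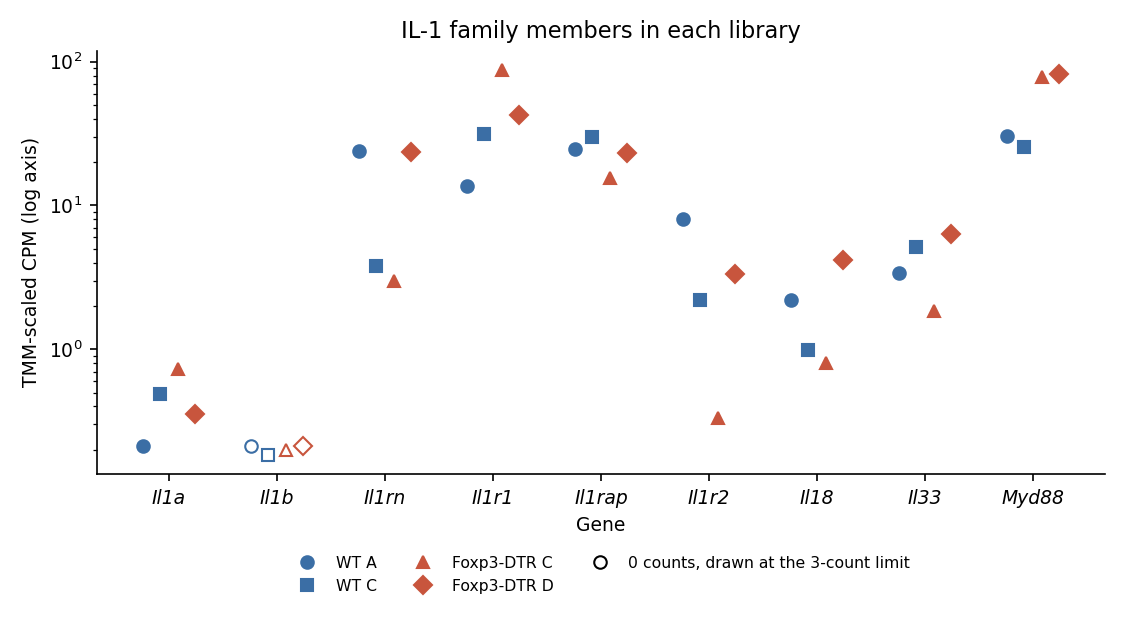
TMM-scaled CPM (log axis) of the 9 IL-1 family genes in each of the 4 libraries, WT in blue and Foxp3-DTR in red, with open symbols for 0 counts drawn at the 3-count limit. Myd88 and Il1r1 lie higher in both Foxp3-DTR libraries, Il1rn is high in WT A and Foxp3-DTR D, and Il1b has 0 counts. Il1a is the lowest detected gene except in Foxp3-DTR C, where Il1r2, at 0.332 CPM, lies under it.

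The agonists were scarce. Il1a (chromosome 2, 129299610 to 129309972), the agonist that keratinocytes are known to hold in preformed stores, had 3 and 8 counts in WT, and 11 and 5 with Foxp3-DTR, or 0.211, 0.492, 0.729 and 0.354 CPM. The groups overlapped. Il1a was below the filter in the test on all 4 libraries. In the 5 alternative fits that held it, it was not called, with edgeR or DESeq2 adjusted p from 0.720 to 0.986. Il1a shares 222 exon bases with the opposite-strand gene Gm14023, so even these few counts are uncertain. Il1b (chromosome 2, 129364570 to 129371139), the agonist that needs cleavage by caspase-1, had 0 counts in every library, which allows at most 0.185 to 0.213 CPM (3 counts per library, counting error only). Messenger RNA says nothing here of agonist protein or of agonist made by other cells of the skin.

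Il1rn, the receptor antagonist (chromosome 2, 24336853 to 24351494), was high in 1 library of each group. It stood at 24.0 CPM in WT A, 3.81 in WT C, 2.98 for Foxp3-DTR C, and 23.5 for Foxp3-DTR D. WT A and Foxp3-DTR D are also the libraries with the highest suprabasal sums. The group means were 13.9 ± 14.3 and 13.3 ± 14.5 CPM (SD, n = 2), and the log2 fold change was -0.07 ± 1.36 (SE; edgeR adjusted p = 0.989). A standard error this wide leaves differences of several-fold undetectable. The part of suprabasal cells or of suprabasal gene expression in the Il1rn level was not tested, and in bulk RNA fewer cells of a type and less RNA per cell cannot be told apart.

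Set against the agonist per exon length, Il1rn was in excess in 3 of 4 libraries beyond counting error. The ratio of Il1rn to Il1a was 40.5 in WT A (exact 95% counting interval 13.8 to 198) and 2.76 in WT C (1.32 to 6.68). With Foxp3-DTR it was 1.46 in library C (0.743 to 3.13) and 23.7 in library D (10.05 to 73.4). By exon length only the interval of Foxp3-DTR C includes equal levels. With the median length of coding transcripts in place of the union of exons, the ratio was 5.95 in Foxp3-DTR C (3.03 to 12.8) and 11.3 in WT C (5.38 to 27.3), and all 4 intervals lay above equal levels. Groups overlapped in this ratio, and an exact two-sided permutation test of 2 against 2 libraries cannot go below p = 0.33.

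Il1r1, the signalling receptor, had higher values in both Foxp3-DTR libraries but missed the threshold. Its level was 13.7 CPM in WT A, 31.6 in WT C, 87.5 for Foxp3-DTR C, and 42.9 for Foxp3-DTR D. The groups did not overlap, and the lower library of each group is the one with the higher suprabasal sum. From 22.7 ± 12.6 to 65.2 ± 31.5 CPM (SD, n = 2), the log2 fold change of Il1r1 (chromosome 1, 40225080 to 40317257) was 1.52 ± 0.52 (SE; edgeR adjusted p = 0.272). This is nearly the fold change of Myd88 with a standard error that is larger. DESeq2 gave Il1r1 an adjusted p of 0.0193, in a test that called 3.61% of 13559 genes higher. Leaving out 1 library at a time, the log2 fold change ran from 0.92 without Foxp3-DTR C to 2.25 without WT C.

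Il1r1 has 2 start sites in the RefSeq table. The window at the second held a match and is shown with it in capitals (GRCm38.p6, chr1:40266336-40266585, plus strand, 250 bases before the start site, 5′ to 3′).
Il1r1 second promoter: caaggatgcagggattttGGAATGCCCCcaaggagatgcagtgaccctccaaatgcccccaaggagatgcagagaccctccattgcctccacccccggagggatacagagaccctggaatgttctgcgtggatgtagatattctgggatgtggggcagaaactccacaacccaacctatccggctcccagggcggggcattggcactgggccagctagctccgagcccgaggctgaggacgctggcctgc
The capitals mark a match to the NF-kappaB consensus on the reverse strand, starting 232 bases before the start site, a motif found in 4.51% of the 32851 windows. The first start site (window chr1:40224830-40225129) had 0 matches to any of the 4 motifs. Which start site the cells used was not measured, and the window shown was chosen after its match was seen.

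Il1rap (chromosome 16, 26581704 to 26730117), the shared partner chain of the receptors for IL-1, IL-33 and IL-36, had lower values in both Foxp3-DTR libraries but did not pass. It stood at 24.5 CPM in WT A, 29.8 in WT C, 15.5 for Foxp3-DTR C, and 23.3 for Foxp3-DTR D. The groups did not overlap, though WT A and Foxp3-DTR D were close. The log2 fold change of Il1rap came to -0.49 ± 0.30 (SE; edgeR adjusted p = 0.548), and ran from -0.80 without Foxp3-DTR D to -0.22 without Foxp3-DTR C. Its exons share 552 bases with the opposite-strand gene Gm20319, which had 0 counts in every library. Both Foxp3-DTR libraries lay above both WT libraries for 2 of the 7 tested members, Il1r1 and Myd88, and below them for 1, Il1rap. The same was true of 22.0% and 23.7% of all genes tested, so the member counts are near the background.

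Il1r2, the decoy (chromosome 1, 40074079 to 40125231), had few counts and spread widely. Its level was 8.10 CPM in WT A, 2.21 in WT C, 0.332 for Foxp3-DTR C, and 3.33 for Foxp3-DTR D. As for Il1rn, the higher library of each group is the one with the higher suprabasal sum, and the groups overlapped. For Il1r2 the log2 fold change was -1.49 ± 1.14 (SE; edgeR adjusted p = 0.649), and it ran from -0.26 without WT A to -3.91 without Foxp3-DTR D.

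The balance of decoy to signalling receptor differed by 2 orders of magnitude between single libraries. Per exon length, the ratio of Il1r2 to Il1r1 was 1.97 in WT A (exact 95% counting interval 1.55 to 2.49) and 0.234 in WT C (0.162 to 0.328). With Foxp3-DTR it was 0.0126 in library C (0.0041 to 0.0296) and 0.259 in library D (0.188 to 0.349). Median coding transcript lengths gave 4.13 and 0.491 in WT, and 0.0266 and 0.544 with Foxp3-DTR. WT A thus had more decoy than signalling receptor RNA per length, and Foxp3-DTR C had 79.1 times as much Il1r1 as Il1r2 by exon length, or 37.6 times by transcript length. WT C and Foxp3-DTR D, from different groups, had overlapping intervals, so the ratio does not separate the groups.

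**Figure D2:**
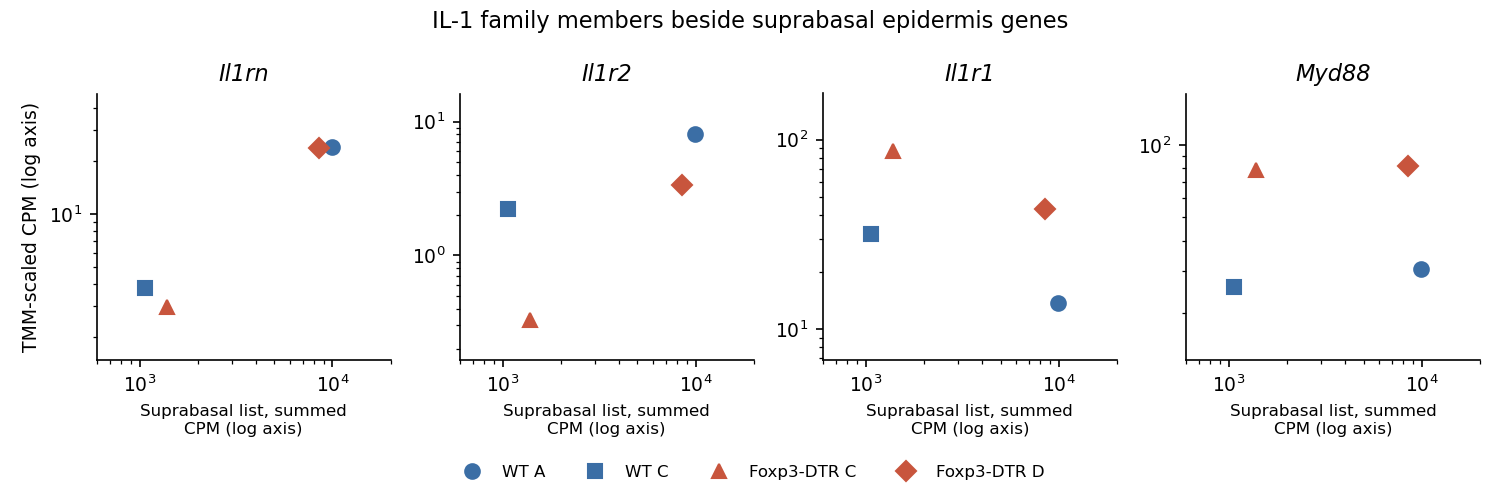
Level of Il1rn, Il1r2, Il1r1 and Myd88 (TMM-scaled CPM, log axis) against the summed level of 9 suprabasal epidermis genes (CPM, log axis), 1 point per library. Il1rn is highest, at 23.5 and 24.0 CPM, in the 2 libraries with high suprabasal sums, while Myd88 differs by group at either suprabasal level.

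Il18 and Il33, released by stressed or dying barrier cells, had low levels that overlapped between groups. Il18 (chromosome 9, 50554827 to 50581840) stood at 2.18 CPM in WT A, 0.984 in WT C, 0.796 for Foxp3-DTR C, and 4.18 for Foxp3-DTR D. Its 2 higher libraries are again those with the higher suprabasal sums, and its log2 fold change was 0.65 ± 0.99 (edgeR adjusted p = 0.840). Il33 (chromosome 19, 29925114 to 29960718) stood at 3.38 CPM in WT A, 5.10 in WT C, 1.86 for Foxp3-DTR C, and 6.38 for Foxp3-DTR D, with its lowest and highest values both in Foxp3-DTR. Its log2 fold change was -0.05 ± 0.72 (edgeR adjusted p = 0.987).

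Per kilobase of annotated exon, Myd88 was the most abundant member in both groups. In WT it stood at 10.9 ± 1.36 CPM per kilobase (SD, n = 2), followed by Il1r1 (3.56 ± 1.99), Il1r2 (2.70 ± 2.18), Il1rn (2.51 ± 2.58), Il1rap (2.39 ± 0.328), Il18 (1.54 ± 0.822) and Il33 (1.47 ± 0.423). From Il1r1 to Il33 neighbours differed by less than the larger SD of the pair, except Il1rap and Il18, which differed by slightly more. In Foxp3-DTR, Myd88 stood at 31.1 ± 0.781 and Il1r1 at 10.2 ± 4.96 CPM per kilobase, and the next were Il18 (2.41 ± 2.32), Il1rn (2.39 ± 2.62), Il1rap (1.71 ± 0.489), Il33 (1.43 ± 1.11) and Il1r2 (0.960 ± 1.11), which differed from their neighbours in that order by less than the larger SD of the pair, from Il18 on. Il1a was at 0.178 ± 0.101 in WT and 0.275 ± 0.134 CPM per kilobase in Foxp3-DTR, below every member but Il1b. By median coding transcript length Myd88 was still first and Il1a and Il1b last in both groups, but the order between them changed. In WT Il1r1 was then sixth, at 4.26 ± 2.37 CPM per kilobase, with Il1rn second at 10.3 ± 10.5, and in Foxp3-DTR Il1r1 stayed second at 12.2 ± 5.92, with Il1rn at 9.77 ± 10.7.

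Among the other receptors and binding proteins of the family, Il18r1, the ligand-binding chain of the IL-18 receptor, was higher in Foxp3-DTR. It had 7 and 25 counts in WT A and WT C, and 228 and 207 counts in Foxp3-DTR C and D. The levels of 0.493 and 1.54 CPM in WT lay well under the 15.1 and 14.7 CPM in Foxp3-DTR. Il18r1 (chromosome 1, 40465552 to 40500854) rose by a log2 fold change of 3.85 ± 0.62 (SE; edgeR adjusted p = 0.0482), the 1 called of 4 tested genes in this list, and without Foxp3-DTR C its edgeR adjusted p was 0.0745. In edgeR on all 4 libraries 0.820% of all genes were called higher. The second chain Il18rap, which the IL-18 receptor needs to signal, had 0 counts in all 4 libraries, as did the IL-33 receptor Il1rl1.

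Other genes of that list are named after their values were seen. Il18bp, a secreted inhibitor of IL-18, stood at 0.563 and 2.34 CPM in the WT libraries, against 8.02 and 8.01 CPM with Foxp3-DTR, and did not pass (edgeR adjusted p = 0.181; DESeq2 adjusted p = 0.0284). Il1rl2, the IL-36 receptor, stood at 40.6 and 49.1 CPM in WT and 62.7 and 46.6 CPM in Foxp3-DTR, with overlapping groups (log2 fold change 0.29 ± 0.23, edgeR adjusted p = 0.667). Sigirr, an inhibitory receptor, was at -0.82 ± 0.76 in log2 fold change (edgeR adjusted p = 0.714).

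Of the 5 other family ligands listed, 3 were tested and 0 passed in edgeR, also at an unadjusted p under 0.05 and in limma-voom. DESeq2 tested 4 and called 1 higher, where it called 3.61% of all genes higher. That call is none of the 3, since DESeq2 adjusted p was 0.358 for Il1f9, 0.731 for Il1f8 and 0.986 for Il1f5. It is of a ligand with 0 counts in both WT libraries. In edgeR Il1f9, which encodes IL-36 gamma, had the smallest p. It stood at 2.46 and 0.554 CPM in the WT libraries, against 0.995 and 12.97 CPM with Foxp3-DTR. Its log2 fold change was 2.21 ± 1.32 (SE; edgeR adjusted p = 0.549), and -0.58 without Foxp3-DTR D, its highest library. Il1f6, which encodes IL-36 alpha and is named after its values were seen, had 0 counts in both WT libraries and 6 and 42 counts in Foxp3-DTR C and D. That is at least 16.7-fold higher over the group, against 3 counts, and rests mostly on Foxp3-DTR D, with 42 of the 48 counts. Il1f5, the IL-36 receptor antagonist, also named afterwards, had a pattern like that of Il1rn, at 19.7 CPM in WT A, 5.29 in WT C, 0.663 for Foxp3-DTR C, and 19.8 for Foxp3-DTR D.

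**Figure D3:**
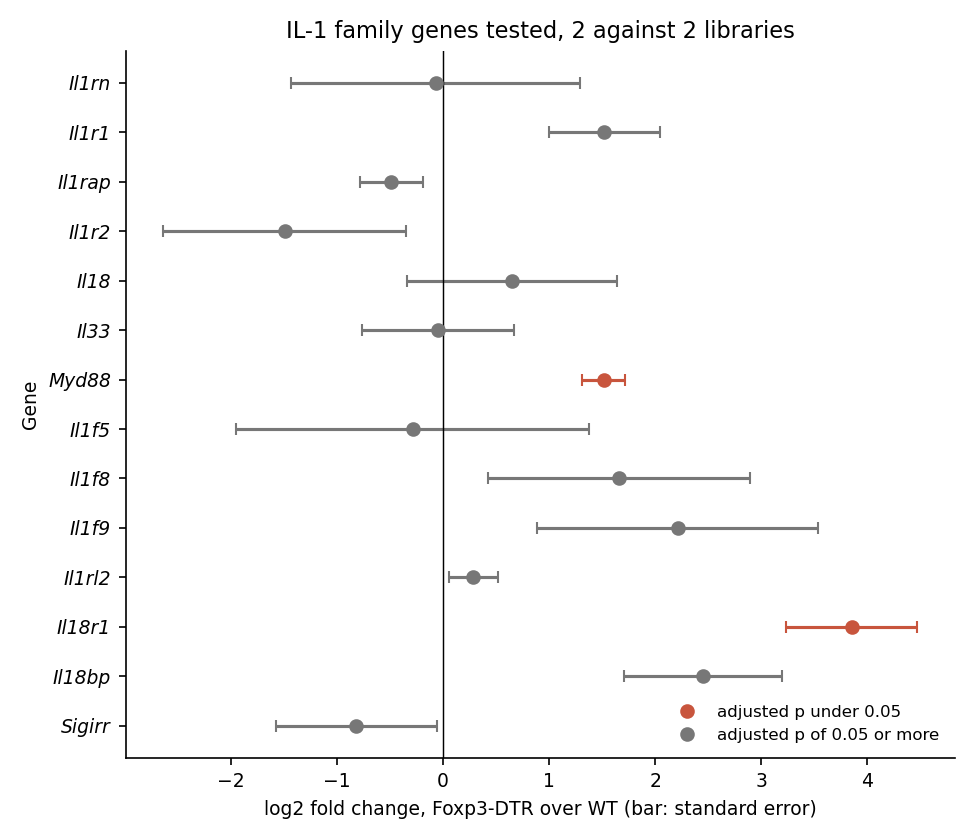
log2 fold change of Foxp3-DTR over WT with its standard error for the 7 members and the 7 other IL-1 family ligands and receptors tested, 2 against 2 libraries. Myd88 (1.51) and Il18r1 (3.85) are in red as past the threshold, and Il1r1 (1.52) has a longer bar.

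Of 23 signalling genes downstream of Myd88 tested, 0 passed in edgeR in either direction. At an unadjusted p under 0.05 in edgeR 2 were higher and 0 lower, where all genes gave 6.76% and 7.89%. DESeq2 called 2 of the list higher, where it called 3.61% of all genes higher, and limma-voom called 0. The list's median log2 fold change was 0.18, against -0.01 for all genes tested. Irak4, the kinase that Myd88 recruits first, had the smallest p. It stood at 9.29 and 11.4 CPM in WT and 22.5 and 28.7 CPM in Foxp3-DTR, with groups that did not overlap (log2 fold change 1.31 ± 0.29, edgeR adjusted p = 0.0881). It passed in DESeq2 (0.00736) and in edgeR without the filter (0.0461).

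Genes that process or release IL-1 family cytokines were tested as a list of inflammasome and cytokine processing. Of 23 such genes, 12 were tested and 0 passed in edgeR. At an unadjusted p under 0.05 in edgeR 3 were higher and 0 lower, where all genes gave 6.76% and 7.89%. Casp4, 1 of the 3 (edgeR unadjusted p = 0.0407), met the count minimum in Foxp3-DTR only, so it could only be higher. DESeq2 called 1 of the list higher, where it called 3.61% of all genes higher, and limma-voom called 0. The list's median log2 fold change was 0.28, and 0.27 over the 11 genes other than Casp4. Capn2, a calpain of the protease class that cleaves pro-IL-1 alpha, had the smallest p, with 190 and 224 CPM in WT and 369 and 339 CPM in Foxp3-DTR (log2 fold change 0.77 ± 0.19, edgeR adjusted p = 0.105). DESeq2 gave Capn2 an adjusted p of 0.00245. Of the sensors in the list, Nlrp10 was at 58.2 to 87.3 CPM over the 4 libraries and Nlrp1b had 8, 65, 22 and 6 counts, both named after their values were seen, while Nlrp3, Nlrc4 and Nlrp1a had 0 counts in every library. The adaptor Pycard and the protease Casp1, named after their values were seen, were present in all libraries, Casp1 at 19.6 to 29.8 CPM and Pycard at 98.96 to 164 CPM.

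Toll-like receptors and their adaptors share Myd88 with the IL-1 receptors. Of 18 such genes, 9 were tested and 0 passed in edgeR. At an unadjusted p under 0.05 in edgeR 2 were higher and 0 lower, where all genes gave 6.76% and 7.89%. DESeq2 called 1 of the list higher, where it called 3.61% of all genes higher, and limma-voom called 0. The list's median log2 fold change was 0.58. Tirap, the bridging adaptor that links Myd88 to some of these receptors, had the smallest p, with 16.7 and 26.9 CPM in WT and 49.7 and 38.2 CPM in Foxp3-DTR (log2 fold change 1.01 ± 0.30, edgeR adjusted p = 0.177). Tlr2, named after its values were seen, stood at 3.31 and 8.67 CPM in the WT libraries, against 43.5 and 14.2 CPM with Foxp3-DTR. In edgeR its log2 fold change was 2.26 with an adjusted p of 0.219. Leaving out 1 library gave adjusted p of 0.0268 without Foxp3-DTR D, 0.192 without WT C, 0.519 when WT A and 0.874 when Foxp3-DTR C was left out, where the latter log2 fold change was 1.25. DESeq2 gave 0.00663.

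Genes known to respond to IL-1 in epithelial cells formed the last list. The list was written with earlier results of these data known, many of its genes also respond to TNF and Toll-like receptor ligands, and it is not independent evidence of a direction. Of 18 tested, 7 were called higher and 0 lower, where all genes gave 0.820% and 0.426%. At an unadjusted p under 0.05 they were 14 and 0, where all genes gave 6.76% and 7.89%. Cxcl1, Ccl2, Ccl7, Lcn2 and Bcl3 met the count minimum in Foxp3-DTR only, so these 5 could only be higher, and 4 of the 7 calls are among them. Of the other 13 genes, 3 were called higher and 0 lower, with a median log2 fold change of 1.804 (1.90 over all 18). The 14 at an unadjusted p under 0.05 include at least the 4 called genes that could only be higher. DESeq2 called 13 of the 21 list genes it tested higher, where it called 3.61% of all genes higher. In limma-voom 2 of 18 were called higher, where it called 70 of 12920 genes higher. Both called 0 of the list lower. The 13 in DESeq2 include Cxcl1, Ccl7, Lcn2 and Bcl3, which met the count minimum in Foxp3-DTR only. Neither this count nor those with a library left out were split by such genes. The edgeR count was 4 without Foxp3-DTR C and 11 without Foxp3-DTR D. The summed neutrophil markers, which reached 0.141 CPM for WT against 4.25 CPM with Foxp3-DTR, differed in the same direction, and their part in the response genes was not tested.

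The feedback inhibitor Nfkbia, which holds NF-kappaB in the cytoplasm, stood at 91.1 and 115 CPM in the WT libraries, against 363 and 368 CPM with Foxp3-DTR (log2 fold change 1.83 ± 0.20, edgeR adjusted p = 0.0170). Adhesion molecule Icam1 went from 19.6 and 25.2 CPM to 335 and 224 CPM (edgeR adjusted p = 0.00503). The NF-kappaB subunit Relb went from 14.9 and 13.9 CPM to 67.8 and 43.6 CPM (edgeR adjusted p = 0.0420). These 3 genes had measurable WT levels and groups that lay apart. Nfkbia and Icam1 passed in all 8 alternatives, while Relb missed in limma-voom (adjusted p = 0.0626) and in edgeR without WT C (0.0518) and without Foxp3-DTR C (0.119).

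Lcn2, a siderophore-binding protein, had 5 counts in WT and Bcl3, a nuclear cofactor of NF-kappaB, had 8, summed over both WT libraries. Lcn2 reached 25.9 and 21.8 CPM, and Bcl3 54.3 and 32.6 CPM, in Foxp3-DTR C and D (edgeR adjusted p = 0.0231 and 0.0486). The log2 fold change of Lcn2 was 7.14, and 11.4 without WT C. That of Bcl3 was 7.30, and 12.4 without WT A, so both sizes depend on few counts in 1 WT library. Lcn2 missed in limma-voom (0.0626) and without Foxp3-DTR C (0.0512). Bcl3 missed in limma-voom (0.0936), without the filter (0.0656), without Foxp3-DTR C (0.3198) and without Foxp3-DTR D (0.149). The neutrophil chemokine Cxcl1 had 2 counts in WT and 343 in Foxp3-DTR, a ratio of 179 (exact 95% counting interval 49.2 to 1484), with an edgeR adjusted p of 0.0305 and 0.0802 in limma-voom. Ccl7, a monocyte chemokine and the last of the 7, was at least 121-fold higher over the group, against 3 counts, since WT had none. It is outside the rule for named genes and was named after its values were seen. Its edgeR adjusted p was 0.0488, and it missed in limma-voom (0.126), without WT A (0.0627), without WT C (0.0640) and without Foxp3-DTR C (0.0832). The cytokine Il6 and the chemokines Cxcl2, Cxcl3 and Cxcl5, members of the same list, had 0 counts in all 4 libraries.

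**Figure D4:**
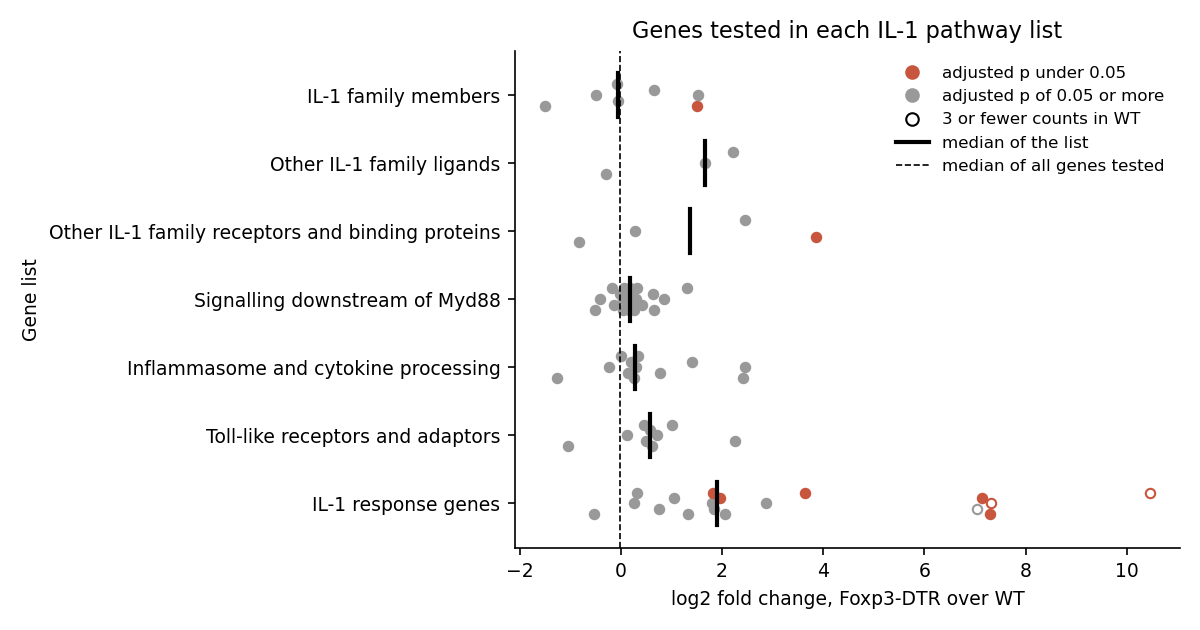
log2 fold change of Foxp3-DTR over WT for each tested gene in the 7 lists, with the list median as a bar and the median of all genes tested (-0.01) as a dashed line. Red points pass the threshold, and open points have 3 or fewer counts in WT, where the fitted value depends on the prior count. The IL-1 response genes extend to the right, with a median of 1.90, and the signalling genes cluster near 0.

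Leukocyte markers were near 0 in these libraries. The neutrophil list had 5 of 9 genes with any count, and its sum was 0 to 0.141 CPM in WT and 2.65 to 4.25 CPM in Foxp3-DTR, with Csf3r, Mmp8, Retnlg and Ngp at 0. It moved with the groups, and 2 of its genes, S100a8 and S100a9, are also on the IL-1 response list. Macrophage and monocyte markers summed to 2.21 to 6.48 CPM in WT and 2.85 to 3.97 CPM in Foxp3-DTR (10 of 12 with counts, Fcgr1 and Mrc1 at 0). T cell markers summed to 7.996 to 17.9 CPM and 5.17 to 8.64 CPM (7 of 12 with counts, Cd4, Cd2, Cd28, Trat1 and Foxp3 at 0). Mast cell markers summed to 1.91 to 2.96 CPM and 3.12 to 4.11 CPM (3 of 9 with counts, Mcpt4, Cma1 and Tpsb2 among those at 0). Langerhans and dendritic cell markers summed to 283 to 292 CPM in WT and 361 to 431 CPM in Foxp3-DTR, with 5 of 9 detected and Itgax and Flt3 at 0. Nearly all of that was Epcam, at 138 to 341 CPM, and Mfge8, at 89.99 to 153 CPM, of which follicle cells express Epcam too, and the Langerhans marker Cd207 had at most 13 counts.

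Other cell types of the skin were also followed, and their part in the member levels was not tested. Upper follicle and sebaceous gland markers summed to 643 to 2259 CPM in WT and 577 to 755 CPM in Foxp3-DTR (8 of 8 detected). Fibroblast markers summed to 40.0 to 53.4 CPM and 27.9 to 31.8 CPM (5 of 8, Lum, Dpt and Mfap5 at 0). Endothelial markers summed to 4.01 to 5.29 CPM and 1.91 to 2.72 CPM (3 of 7, Cdh5 and Kdr at 0). Melanocyte markers summed to 96.1 to 140 CPM and 117 to 138 CPM (6 of 6). The most abundant tested gene was Krt5 among stem cell markers, Krt10 among suprabasal ones, Scd1 for upper follicle, Thy1 for T cells, Cd68 for macrophages, Cxcr2 for neutrophils, Kit for mast cells, Col1a2 for fibroblasts, Tek for endothelium and Mitf for melanocytes. Of all 11 cell type lists, 0 of 47 tested genes passed in edgeR. At an unadjusted p under 0.05 in edgeR 5 were higher and 4 lower, where all genes gave 6.76% and 7.89%. Cxcr2, the 1 neutrophil gene tested, is among the 5. Its list summed to at most 0.141 CPM in WT, so Cxcr2 was kept through Foxp3-DTR and could only be higher. DESeq2, over its own tested genes, called 3 marker genes pooled over these lists higher and 3 lower. Over all genes it called 489 and 514 of 13559. In limma-voom 0 were called in either direction.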

How the data were processed

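Counts are those the authors deposited: whole numbers of reads per gene symbol in 4 libraries, not normalized. Per the submitters' processing notes, HTSeq 0.6.1, TopHat2 2.0.12, SAMtools 0.1.19.0, CASAVA 1.8.2 and Bowtie2 2.1.0.0 were used, with build mm10. Neither annotation nor strand setting is given in the sources used here. A stranded mRNA kit was used, per the labels' protocols. The 5 counter rows that name no gene, 62.0% to 70.1% of counts, were left out. Reads without a unique alignment made up 61.3% in WT A and 58.3% in Foxp3-DTR D. They were 51.8% in WT C and 53.4% in Foxp3-DTR C. The libraries with more of them are those with the higher suprabasal sums, and their part in the member levels was not tested. Groups were compared in R 4.3.3 with edgeR 4.0.16 (TMM, filterByExpr, robust quasi-likelihood test, no covariate), with Benjamini-Hochberg adjustment over all 12920 genes at 0.05. DESeq2 1.42.0, limma-voom (limma 3.58.1), RLE factors, no filter and leaving out each library were alternatives. The procedure was tested on simulated data. Exon lengths and coordinates are from GENCODE M21 (GRCm38) and promoter sequences from RefSeq GRCm38.p6, where all 10 genes looked for matched. Intervals and 3-count limits cover counting error only. Each SE of a log2 fold change is its absolute value divided by the square root of the F statistic of the edgeR test.

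The members, the 6 pathway lists and the 11 cell type lists were chosen with earlier results of these data known. Named genes were all 9 members, up to 6 passing genes per pathway list or else its smallest p (genes named outside this rule are said to be so in the text), the most abundant gene of each cell type list in the marker sums, and the 3 profiles nearest a passing member. No list test was made.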

Additional observations from a re-analysis of the deposited data

How the results depend on the processing

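Myd88 had a positive log2 fold change, between 1.40 and 1.66, in all 8 alternatives and passed in 7 of them. Il18r1 passed in 6 of 8 and missed in limma-voom (adjusted p = 0.0675). Il1r1 was positive in all 8 and passed in 1, DESeq2. The number of members called higher was 2 in DESeq2 and 0 to 1 when a library was left out, and 0 members were called lower in any alternative. Other receptors called higher were 2 in DESeq2 and 0 in limma-voom, and 0 to 1 with a library left out. DESeq2 called 2 signalling genes, 1 processing gene, 1 Toll-like receptor gene, 1 other ligand and 13 IL-1 response genes higher. The 13 include genes that met the count minimum in Foxp3-DTR only. Without the filter 1 signalling gene was called higher, and limma-voom called 2 response genes. Leaving out a library gave 4 to 11 response genes and 0 to 1 Toll-like receptor genes. Over all genes, the calls were 489 higher and 514 lower in DESeq2, 70 and 23 in limma-voom and 277 and 252 with no filter, and with a library left out 66 to 203 higher and 14 to 220 lower.

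Median transcript lengths for the ratios, and a fit with the suprabasal genes' mean as covariate, were added after seeing the data. The covariate is computed from the same counts and leaves 1 residual degree of freedom. This fit called 2 members, 2 other receptors, 2 signalling, 3 processing, 2 Toll-like receptor and 13 response genes higher, and 727 and 756 of all genes higher and lower. Il1r1 had a log2 fold change of 1.57 in it (adjusted p = 0.000306).

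Signs turned with single libraries in members whose replicates disagree. Il1rn ran from -2.21 to 1.81, at 1.81 when WT A was left out and 0.76 when Foxp3-DTR C was. Il18 was -0.97 without Foxp3-DTR D. Il33 ran from -1.18 to 0.59, with 0.29 without WT C and 0.59 without Foxp3-DTR C. Il1f5 ran from -4.21 to 0.97, the latter when WT A was left out, and was 0.67 when Foxp3-DTR C was. Il1f9 ran from -0.58 to 3.65 and Il1f8 from -0.59 to 2.64, both negative only when Foxp3-DTR D was left out. With 1 library left in a group, that library is assumed to vary like the other group. The cause of these changes was not tested. No paired analysis was possible because the groups share only the replicate letter C. Depth limits Il1a and Il1b, and the ratios depend on the transcript length assumed.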

Other observations

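Gasdermins, pore-forming proteins that can release IL-1 family cytokines, are part of the processing list and are named after their values were seen. Gsdma stood at 19.2 CPM in WT A, 1.85 in WT C, 2.52 for Foxp3-DTR C, and 18.5 for Foxp3-DTR D, so that its high libraries are those of Il1rn. Gsdmd stood at 3.66 and 9.72 CPM in the WT libraries, against 23.3 and 12.4 CPM with Foxp3-DTR, with non-overlapping groups like those of Il1r1 (edgeR adjusted p = 0.317). Gsdmc, from a cluster of closely related copies whose reads are uncertain, stood at 7.39 and 0.7996 CPM in WT and at 7.56 and 37.3 CPM in Foxp3-DTR. Its edgeR adjusted p was 0.537.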
